A study of Xenopus laevis with 46 samples.

Results

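Cerberus is a secreted protein of the Spemann organizer, the dorsal signalling centre of the amphibian gastrula. It is made in the anterior endomesoderm at the leading edge of the organizer, and in Xenopus it binds Nodal-related, BMP and Wnt ligands outside the cell and keeps them from their receptors. Injected Cerberus mRNA is known for inducing ectopic head structures and blocking mesoderm. Xenopus laevis is an allotetraploid frog, so most of its genes occur as a pair of homeologs, one on an L and one on an S chromosome. The 2 homeologs of Cerberus, cer1.L and cer1.S, were taken by their identifiers from the tables of both stages, where they are 2 of 43658 rows at stage 10.5 and 2 of 37005 rows at stage 9. Both rows also stand in the authors' list of 123 signature genes.

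Polyadenylated RNA of embryos of the Nasco strain was sequenced in 46 libraries, 29 of stage 10.5 (early gastrula) and 17 of stage 9 (late blastula). At stage 10.5 there were 6 whole-embryo controls, 3 libraries of embryos injected with a morpholino that knocks down β-catenin (bCatMO), 2 of embryos treated with lithium chloride at the 32-cell stage (LiCl, which expands the organizer), 2 injected marginally with 100 pg of sia mRNA (Sia), 3 injected with xWnt8 mRNA (Wnt8), 3 injected with xCer L mRNA (Cer), and 5 libraries each of dorsal and ventral half-embryos cut at stage 8 and grown to stage 10.5. At stage 9 there were 5 controls, 2 bCatMO, 2 LiCl, 2 Sia, 3 Wnt8 and 3 Cer libraries. Injections were made at the 2-cell to 4-cell stage, and the labels name for each treated library the control of its own batch. The labels state no dose for the morpholino, xWnt8 or xCer L and do not say what the L of xCer L stands for. For the first Wnt8 and Cer libraries 1 label field says stage 10 where the others say 10.5. The headings of the tables call each treated library with its control an independent experiment, but no source used here ties libraries to separate clutches, so p-values measure the spread between these libraries.

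Depth was 24.5 to 45.0 M reads (megareads) in genes per library at stage 10.5 and 27.9 to 58.5 M at stage 9. Values are RPKM, reads scaled to gene length and to the total of the library, which allows levels of the pair to be compared per length. A difference is called at a Benjamini-Hochberg adjusted p below 0.05 over all rows tested with limma on log2(RPKM + 0.5), and a fold change is given on that log2 scale with its standard error. Reads of near-identical homeologs can be counted for the wrong copy. All 9 rows of organizer markers (chrd, gsc, nog and otx2) were called higher in dorsal than ventral half-embryos, where 0.547% of all rows were. For the ventral markers szl, bambi and ventx2, 6 of 8 rows were called lower, where 0.13% of all rows were.

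In control embryos of stage 10.5 cer1.S was the more abundant homeolog in every library. Its 6 control values ran from 59.2 through a median of 75.4 to 115 RPKM (84.5 ± 23.4, SD, n = 6). Those of cer1.L ran from 8.63 through 12.1 to 28.9 RPKM (14.4 ± 7.50, SD, n = 6). The highest cer1.L control, control 6, stood at 28.9 RPKM against 14.9 for the next one, while the highest cer1.S controls were controls 2 and 6 at 115 and 112 RPKM. No control value of one homeolog overlapped those of the other. The share of cer1.L in the sum of both was 11.4% to 20.4%, with a median of 12.4%.

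Both homeologs were dorsal. In the 5 dorsal half-embryos cer1.S stood at 303, 149.7, 88.2, 111 and 109 RPKM, and in the 5 ventral half-embryos at 8.85, 3.48, 2.03, 2.61 and 4.09 RPKM. For cer1.L the dorsal values were 65.1, 15.6, 11.9, 18.8 and 8.15 RPKM and the ventral values 1.23, 0.258, 0.170, 0.392 and 0.234 RPKM. The groups did not overlap for either homeolog, and the first dorsal and the first ventral library were the highest of their groups for both. Within same-numbered pairs cer1.S was 26.5 to 43.5 times higher dorsally and cer1.L 34.8 to 70.2 times, so that the dorsal member held 96.4% to 97.8% of the pair's cer1.S and 97.2% to 98.6% of its cer1.L. The fitted difference, dorsal minus ventral, was 5.02 ± 0.38 for cer1.S (adjusted p = 2.1e-05) and 4.37 ± 0.47 for cer1.L (adjusted p = 0.00042), higher in 5 of 5 pairs for each. Of all 18448 rows tested 0.678% were called here and 0.547% were called higher. With same-numbered half-embryos as blocks the calls over all rows went from 125 to 422, and both homeologs stayed called. A dorsal half-embryo can hold more cells that express a gene or more RNA per cell, which bulk libraries cannot tell apart.

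**Figure D1:**
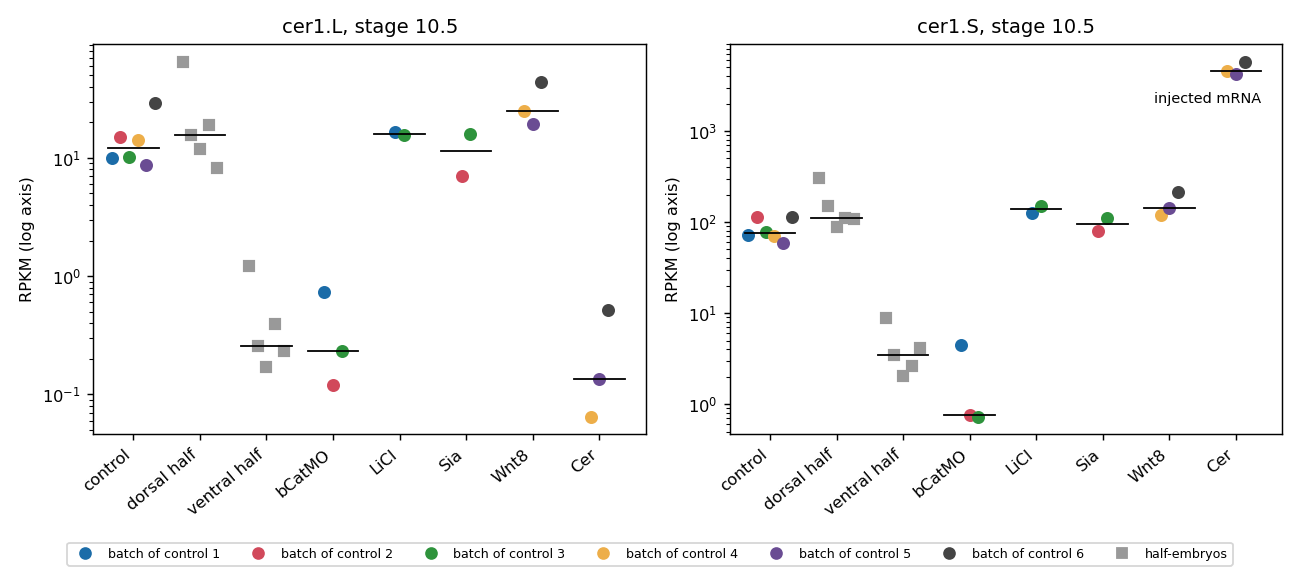
RPKM of cer1.L (left) and cer1.S (right) in each stage 10.5 library by group, on log axes. Points are libraries, coloured by the control that shares their batch (grey squares are half-embryos, which have no labelled batch), and bars are group medians. Ventral half-embryos and bCatMO lie below every control for both homeologs, Cer lies below every control for cer1.L, and the cer1.S row of Cer libraries holds the injected mRNA at 4247 to 5762 RPKM.

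Knock-down of β-catenin, the maternal signal that starts the organizer, left little of either homeolog at stage 10.5. The 3 bCatMO libraries held cer1.S at 4.50, 0.764 and 0.728 RPKM, against 72.2, 115 and 78.7 RPKM in controls 1, 2 and 3 of the same batches. For cer1.L they held 0.729, 0.119 and 0.233 RPKM, from 40, 7 and 14 reads, against 9.98, 14.9 and 10.1 RPKM. The groups did not overlap, and the first bCatMO library kept the most of both, 6.24% of its control's cer1.S and 7.30% of its cer1.L. The other two kept 0.665% and 0.926% of cer1.S, and 0.799% and 2.32% of cer1.L. The fitted difference was -5.46 ± 0.39 for cer1.S (adjusted p = 5.8e-06) and -3.86 ± 0.29 for cer1.L (adjusted p = 7.5e-06), lower in 3 of 3 batches for each, where 7.15% of 18834 rows were called and 5.17% were called lower. All 9 rows of the organizer markers were called lower in the same libraries.

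In bCatMO the factors reported to act on the cerberus promoter in Xenopus moved in part with the homeologs. Over all rows 5.17% were called lower in bCatMO at stage 10.5. Of 15 tested rows of sia1, sia2, lhx1, otx2, mix1, mixer and hhex, 10 were called lower there and 0 higher (also 0 at an unadjusted p below 0.05 and 0 with voom), with a median of -1.39 beside -0.01 over all rows. The sia1 and sia2 rows belong to siamois and twin, homeobox factors switched on directly by maternal β-catenin. The sia1 row Xelaev18019203m went from 16.5 ± 5.57 RPKM in the 3 batch controls to 0.136 ± 0.132 in bCatMO (-4.71 ± 0.24, adjusted p = 4.9e-07), and the sia2 row was listed at 0 in all 3 bCatMO libraries against 4.22 ± 0.736 RPKM. The otx2 row Xelaev18041108m, a head homeobox factor, fell by 3.82 ± 0.22 (adjusted p = 1.3e-06). The endodermal homeobox factors mix1 and mixer were not called: mix1.L changed by -0.11 (adjusted p = 0.78), mix1.S by -0.12 (adjusted p = 0.76), mixer.L by -0.38 (adjusted p = 0.36) and mixer.S by -0.03 (adjusted p = 0.96).

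Between dorsal and ventral half-embryos 0.547% of all rows were called higher and 0.13% lower. In the dorsal half-embryos 8 of 14 tested rows of the same factors were called higher and 0 lower (also 0 at an unadjusted p below 0.05 and with voom), with a median of 2.05 beside -0.02 over all rows. They include both hhex rows, an anterior endoderm homeobox gene (hhex.L 3.11, hhex.S 3.22), both lhx1 rows, a LIM homeobox gene of the organizer (lhx1.L 1.84, lhx1.S 2.27), and both otx2 rows. In LiCl, Sia and Wnt8 at stage 10.5 the chosen fit called neither homeolog. There 8, 5 and 2 of 15 tested rows of these factors were called higher, in that order. In each 0 were called lower (also 0 at an unadjusted p below 0.05 and with voom). Over all rows 3.8% were called higher in LiCl, and 4.16% and 0.462% were called in Sia and Wnt8. Without the batch term the counts were 5, 1 and 0. The rows called in Sia include the sia1 row Xelaev18019203m, which can hold the injected mRNA.

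Lithium chloride, which inhibits the kinase GSK3 and so stabilises β-catenin, did not give a call for either homeolog at stage 10.5. The 2 LiCl libraries held cer1.S at 127 and 152 RPKM against 72.2 and 78.7 in controls 1 and 3. They held cer1.L at 16.4 and 15.5 RPKM against 9.98 and 10.1. Both libraries were above their own controls, by 1.76 and 1.93 times for cer1.S and 1.65 and 1.54 times for cer1.L. The fit over all whole embryos gave 0.57 ± 0.45 for cer1.S (adjusted p = 0.45) and 0.35 ± 0.33 for cer1.L (adjusted p = 0.54), where 14.2% of all rows were called and 3.8% were called higher. On the log2 scale the batch ratios were 0.81 and 0.95 for cer1.S and 0.72 and 0.62 for cer1.L, all above these fitted values. The batch terms and the spread of that fit were shared with the other whole-embryo groups, bCatMO among them. Fitted without those other groups, on only the 2 LiCl libraries and controls 1 and 3, both homeologs were called. That fit gave 0.88 ± 0.06 for cer1.S (adjusted p = 0.00019) and 0.64 ± 0.08 for cer1.L (adjusted p = 0.0022). Its values were higher and its standard errors smaller than in the shared fit. Which of the other groups moved the shared fit was not tested. So few libraries leave little from which to estimate the spread. Voom on recovered reads called cer1.S (0.73 ± 0.22, adjusted p = 0.042). Without control 1 the fitted values were -0.034 for cer1.S and -0.017 for cer1.L. Of the 9 organizer marker rows 6 were called higher and 0 lower in LiCl in the fit over all whole embryos.

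After injection of siamois mRNA the batches differed in direction. Sia 1 held cer1.S at 80.6 RPKM and cer1.L at 7.05 RPKM, below control 2 at 115 and 14.9 RPKM. Sia 2 held 111 and 15.9 RPKM, above control 3 at 78.7 and 10.1 RPKM. Both homeologs thus went down in one batch, to 0.702 times for cer1.S and 0.474 times for cer1.L, and up in the other, to 1.41 and 1.58 times. The fitted differences were 0.30 ± 0.45 for cer1.S (adjusted p = 0.83) and -0.01 ± 0.33 for cer1.L (adjusted p = 0.99), where 4.16% of all rows were called. In the same libraries the sia1 row Xelaev18019203m was higher by 5.29 (adjusted p = 2.1e-07), which checks the injection. Of the 9 organizer marker rows 8 were called higher and 0 lower in Sia, with a median of 1.69. The organizer markers were thus called higher where neither homeolog was.

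Wnt8 mRNA, which encodes a ligand that raises β-catenin, was followed by higher values in all 3 batches. The Wnt8 libraries held cer1.S at 119, 143 and 216 RPKM against 69.5, 59.2 and 112 in controls 4, 5 and 6. They held cer1.L at 25.2, 19.5 and 44.0 RPKM against 14.1, 8.63 and 28.9. The order of the batches was not the same for the pair, since cer1.S was lowest in Wnt8 1 and cer1.L in Wnt8 2, while Wnt8 3 was highest for both. The ratio to the batch control was 1.71 to 2.42 for cer1.S and 1.53 to 2.26 for cer1.L. The fitted differences, 0.99 ± 0.39 for cer1.S (adjusted p = 0.67) and 0.85 ± 0.29 for cer1.L (adjusted p = 0.51), were not called, where 0.462% of all rows were. Fitted with only Wnt8 and controls 4, 5 and 6, both were called (adjusted p = 0.012 for cer1.S and 0.029 for cer1.L). That fit too has few libraries from which to estimate the spread. Voom on recovered reads called cer1.S (adjusted p = 0.020). Of the 9 organizer marker rows 2 were called higher and 0 lower in Wnt8 in the fit over all whole embryos.

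Ordered by group median at stage 10.5, cer1.L was highest in Wnt8 at 25.2 RPKM, followed by LiCl at 16.0, dorsal half-embryos at 15.6, controls at 12.1, Sia at 11.5, ventral half-embryos at 0.258, bCatMO at 0.233 and Cer at 0.134 RPKM. Neighbours in this order overlapped in range except Wnt8 and LiCl, and Sia and ventral half-embryos. Leaving out Cer, the order for cer1.S was Wnt8 at 143, LiCl at 139, dorsal half-embryos at 111, Sia at 95.7, controls at 75.4, ventral half-embryos at 3.48 and bCatMO at 0.764 RPKM, and only controls and ventral half-embryos did not overlap. For each homeolog the groups thus fell into a high set of 5 and a low set.

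The pair moved together in each library pair. Outside the Cer libraries the cer1.L share ran from 5.41% to 24.3% over 26 libraries of stage 10.5, with a median of 12.2%. In batch 4 it was 16.9% in the control and 17.5% in Wnt8, in batch 5 it was 12.7% and 12.0%, and in batch 6 it was 20.4% and 16.9%. The batches thus differed from each other by more than Wnt8 differed from its control in batches 4 and 5. In each pair of half-embryos the dorsal library had the higher share, from 6.98% against 5.41% in the fifth pair to 17.7% against 12.2% in the first. Without a pseudocount, the dorsal over ventral log2 ratio of cer1.L exceeded that of cer1.S by 0.48 ± 0.21 (SD, n = 5 pairs), higher in 5 of 5 pairs, and the exact two-sided sign-flip permutation test gave p = 0.0625, the smallest that 5 pairs allow. The fit on log2(RPKM + 0.5) over 3622 homeolog pairs gave the opposite sign, -0.65 ± 0.28 (adjusted p = 1.00, 0.193% of pairs called), because 0.5 RPKM is more than 4 of the 5 ventral cer1.L values; with 0.1 in its place the value was 0.11.

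**Figure D2:**
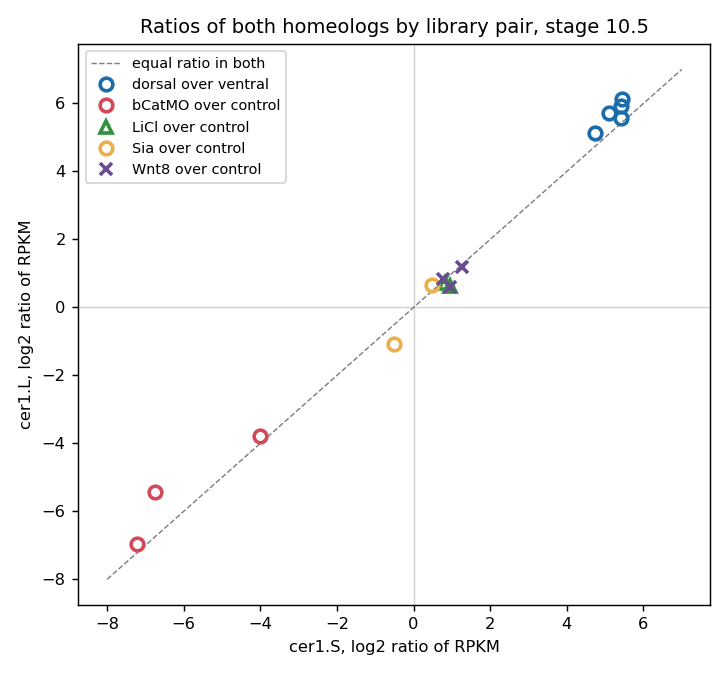
Log2 ratio of RPKM in each treated library over its batch control, or each dorsal half-embryo over the ventral one of its number, for cer1.S (horizontal) and cer1.L (vertical) at stage 10.5, without a pseudocount and without Cer. The dashed line marks equal ratios. All 5 half-embryo pairs lie above it, at cer1.S ratios of 4.73 to 5.44 and cer1.L ratios of 5.12 to 6.13, and the 3 bCatMO pairs lie at the other end.

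In bCatMO libraries the cer1.L share was above that of the batch control in 3 of 3 batches, at 13.9%, 13.5% and 24.3% against 12.1%, 11.5% and 11.4%. The fitted change of the log2 ratio of cer1.L to cer1.S was 1.60 ± 0.26 (adjusted p = 0.0035), in a comparison where 7.64% of 3650 homeolog pairs were called. The size of this value moved with the pseudocount. Without a pseudocount the ratio rose by 0.23, 0.26 and 1.32 on the log2 scale in the 3 batches, the last from 14 cer1.L and 35 cer1.S reads, and with a pseudocount of 0.1 the fit gave 0.99 (adjusted p = 0.028). Leaving out 1 bCatMO library gave 2.07 without the first, 1.40 without the second and 1.37 without the third, each still called (adjusted p = 6.1e-05, 0.030 and 0.021). With no batch term the call was lost (1.32, adjusted p = 0.082). For LiCl, Sia and Wnt8 the fitted changes of the ratio were -0.22 ± 0.30, -0.31 ± 0.30 and -0.14 ± 0.26 (adjusted p = 0.71, 0.75 and 1.00), where 7.78%, 3.48% and 0.274% of pairs were called.

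**Figure D3:**
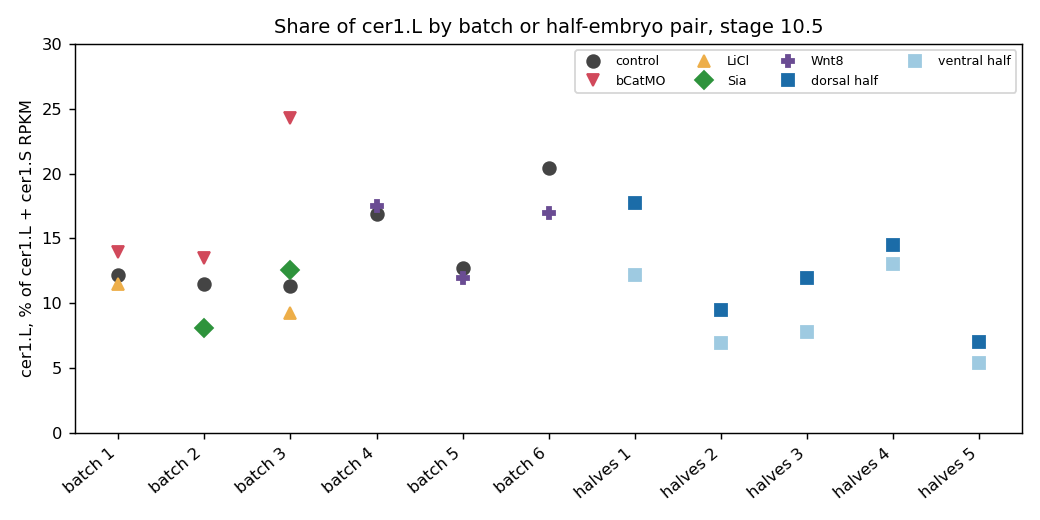
Share of cer1.L in the summed RPKM of cer1.L and cer1.S at stage 10.5, by labelled batch (left, named after the control) and by same-numbered pair of half-embryos (right), without Cer. Symbols are libraries; the dorsal square lies above the ventral one in all 5 pairs, and the highest value, 24.3%, is the third bCatMO library.

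In embryos injected with xCer L mRNA the cer1.S row read the injection. It stood at 4603, 4247 and 5762 RPKM in the 3 libraries of stage 10.5, where it was the most abundant row and took 0.706%, 0.651% and 0.884% of the reads. At stage 9 it stood at 5348, 4874 and 6622 RPKM, again the first row in each library. Few of those reads were counted for the other homeolog: at stage 9 the 3 Cer libraries held 1 cer1.L read beside 1091533 cer1.S reads. At stage 10.5 they held 5, 9 and 35 cer1.L reads beside 285456, 229133 and 315395 cer1.S reads, or 0.00175%, 0.00393% and 0.0111% as many.

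The cer1.L row, which reads the embryo's own gene apart from any such miscounted reads, was very low in Cer embryos at stage 10.5. It stood at 0.0646, 0.134 and 0.512 RPKM against 14.1, 8.63 and 28.9 RPKM in controls 4, 5 and 6, which is 0.458%, 1.55% and 1.78% of the batch control. The groups did not overlap, and Cer 3, in the batch with the highest control, held the most. The fitted difference was -4.47 ± 0.29 (adjusted p = 2.0e-06), lower in 3 of 3 batches, where 4.54% of all rows were called and 2.9% were called lower. What the embryo's own cer1.S did in these libraries cannot be read beneath the injected mRNA. The rows next to cer1.S in the RefSeq gene order of assembly Xenopus_laevis_v10.1, ttc39b.S and zdhhc21.S, were not called in Cer (-0.05 and -0.07, adjusted p = 0.85 and 0.65) or in bCatMO (0.13 and -0.10, adjusted p = 0.40 and 0.33).

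Among the ligands that Cerberus binds or opposes, rows were called in both directions in Cer embryos of stage 10.5. Of 20 tested rows of nodal1, nodal2, nodal5, nodal6, bmp2, bmp4, bmp7 and wnt8a, 8 were called higher and 5 lower, with a median of 0.07 beside 0.00 over all rows, where 1.65% of all rows were called higher and 2.9% lower. Without the batch term 4 were called higher and 5 lower. The Nodal ligands of the early wave, nodal5 and nodal6, supplied all 8: the 6 tested nodal5 rows ranged from 1.09 (Xelaev18018808m) to 2.63 (Xelaev18018805m), and nodal6.L and nodal6.S rose by 1.44 and 0.93. The nodal5 row Xelaev18018805m stood at 10.1 ± 1.21 RPKM in Cer against 1.22 ± 0.182 in the batch controls (SD, n = 3 each), and as copies of this cluster are near-identical the rows may share reads. The mesendodermal ligand row nodal1.L fell by 2.12 ± 0.22, from 18.7 ± 3.94 to 3.95 ± 1.23 RPKM (adjusted p = 7.5e-05), and nodal2.L by 1.50. The ventrolateral Wnt ligand rows wnt8a.L and wnt8a.S fell by 1.48 and 1.21, while bmp4.L and bmp4.S were not called (0.07 and 0.54, adjusted p = 0.88 and 0.16).

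Genes that respond to Nodal signals in the mesendoderm were lower almost throughout. Of the 45 tested rows of these genes 41 were called lower and 0 higher (also 0 at an unadjusted p below 0.05 and with voom). Their median was -2.01, in a comparison where 2.9% of all rows were called lower. The feedback antagonist row lefty.S went from 22.9 ± 2.90 to 1.26 ± 1.13 RPKM (-3.91 ± 0.27, adjusted p = 2.7e-06). The mesodermal bHLH gene row mespb.S fell by 3.76 ± 0.40 and hhex.L by 3.73 ± 0.20. Of 27 tested rows listed as anterior endomesoderm genes, 22 were called lower and 0 higher (1 at an unadjusted p below 0.05, 0 with voom), with a median of -1.71. The rows of hhex, gsc, foxa4, foxa2, lhx1, sox17a, gata4 and gata6 stand both in this list and in the Nodal-responsive one. Among factors reported at the cerberus promoter 9 of 15 rows were called lower, with a median of -1.71: both mix1, both mixer, both lhx1 and both hhex rows and the otx2 row Xelaev18039840m (-0.96 ± 0.21, adjusted p = 0.019). All of these but the otx2 row are also Nodal-responsive rows here, so the counts of these lists are not separate readouts. None of the 5 sia1 and sia2 rows was called, and the lowest were the sia1 rows Xelaev18019203m (-0.65 ± 0.24, adjusted p = 0.20) and Xelaev18000882m (-0.62 ± 0.24, adjusted p = 0.24).

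In Cer embryos of stage 10.5, 2.9% of all rows were called lower and 1.65% higher, with a median of 0.00 over all rows. BMP-responsive ventral genes gave 18 rows lower and 0 higher of 36 (2 higher at an unadjusted p below 0.05, 0 with voom), with a median of -0.61. The row msx1.S, a homeobox target of BMP, went from 31.0 ± 2.78 to 4.39 ± 2.07 RPKM (-2.79 ± 0.37, adjusted p = 0.00050). The row szl.L, the ventral antagonist sizzled, fell by 2.69 ± 0.31. Without the batch term 9 BMP-responsive rows were called lower. Of 26 zygotic Wnt-responsive rows 10 were called lower and 1 higher, with a median of -0.77, and without the batch term 2 were called lower. The mesodermal T-box row Xelaev18010507m (tbx6) fell from 345 ± 18.1 to 115 ± 13.0 RPKM (-1.59 ± 0.07). Of 23 rows of other antagonists of Nodal, BMP and Wnt, not all of them secreted, 14 were called lower and 2 higher, with a median of -1.25.

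Over all rows 1.65% were called higher and 2.9% lower in Cer embryos of stage 10.5. Of 27 tested rows of head and neural plate genes 12 were called higher and 5 lower, with a median of 0.21. Without the batch term 7 were called higher and 2 lower. The anterior homeobox gene hesx1 rose in both of its rows (Xelaev18001776m 2.08 ± 0.28, from 2.50 ± 0.277 to 12.7 ± 4.80 RPKM, and Xelaev18003045m 1.51 ± 0.20), and the row otx1.L rose from 24.4 ± 3.50 to 53.9 ± 14.1 RPKM (adjusted p = 0.00091). Among the 5 rows of this list called lower was the otx2 row Xelaev18039840m (-0.96 ± 0.21, adjusted p = 0.019). In the same libraries 7 of 9 organizer marker rows, 8 of 8 ventral marker rows and 2 of 3 epidermis marker rows were called lower. The ventral marker rows all stand in the BMP-responsive list, and the organizer marker rows also stand in the lists. Those rows are thus no separate readout. The part of these territories in the lists was not tested. The lists share members, and whether one list differed from another was not tested.

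**Figure D4:**
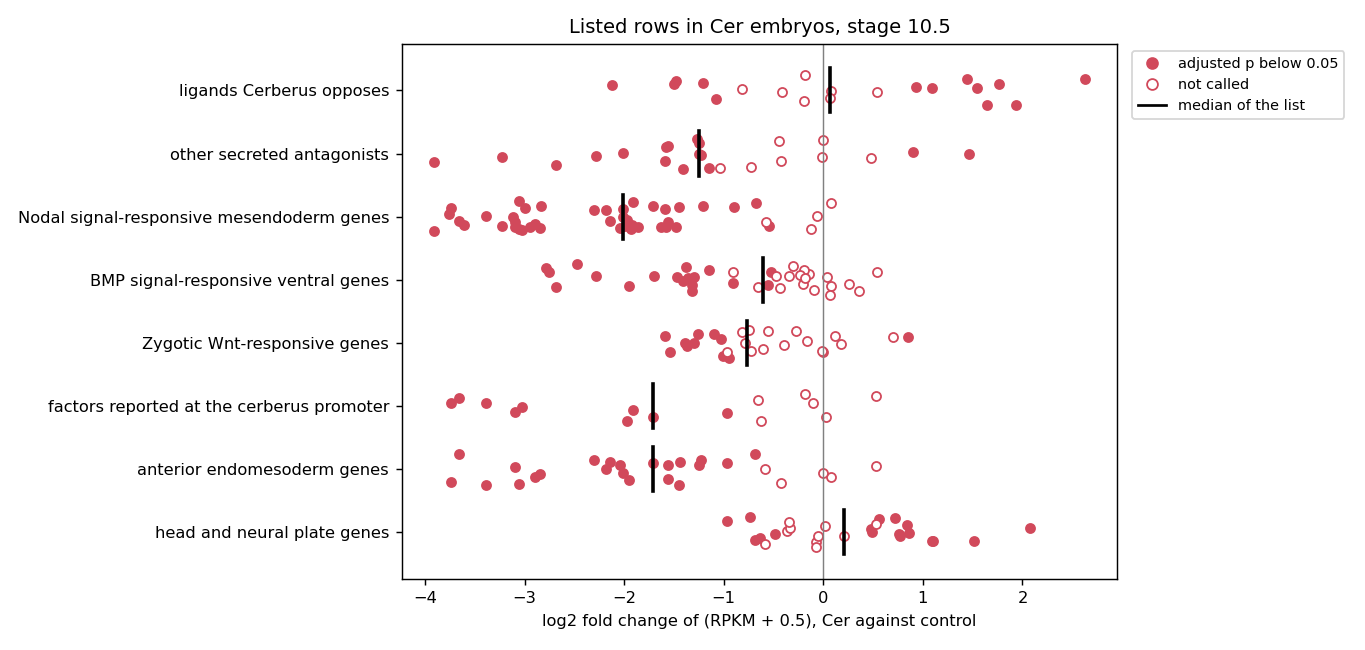
Log2 fold change of RPKM + 0.5, Cer against control at stage 10.5, for each row of 8 gene lists. Filled points are called at an adjusted p below 0.05, open points are not, and black bars are list medians. The Nodal-responsive list has its median at -2.01 and no called row above 0, the ligand list has called rows on both sides, and the head and neural plate list has its median at 0.21.

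At stage 9, before gastrulation, cer1.S was low and cer1.L was close to the limit of detection. The 5 controls held cer1.S at 8.60, 3.86, 10.6, 3.44 and 1.50 RPKM. They held cer1.L at 20, 3, 20, 5 and 0 reads, or 0.210, 0.0268, 0.258, 0.0865 and 0 RPKM, where 3 reads correspond to 0.0268 to 0.0519 RPKM. The cer1.L share of the sum was therefore 0% to 2.46% in controls of stage 9, beside 11.4% to 20.4% in controls of stage 10.5, and the ranges of these within-library shares did not overlap. The tables of the stages were normalised separately, so levels were not tested across them.

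**Figure D5:**
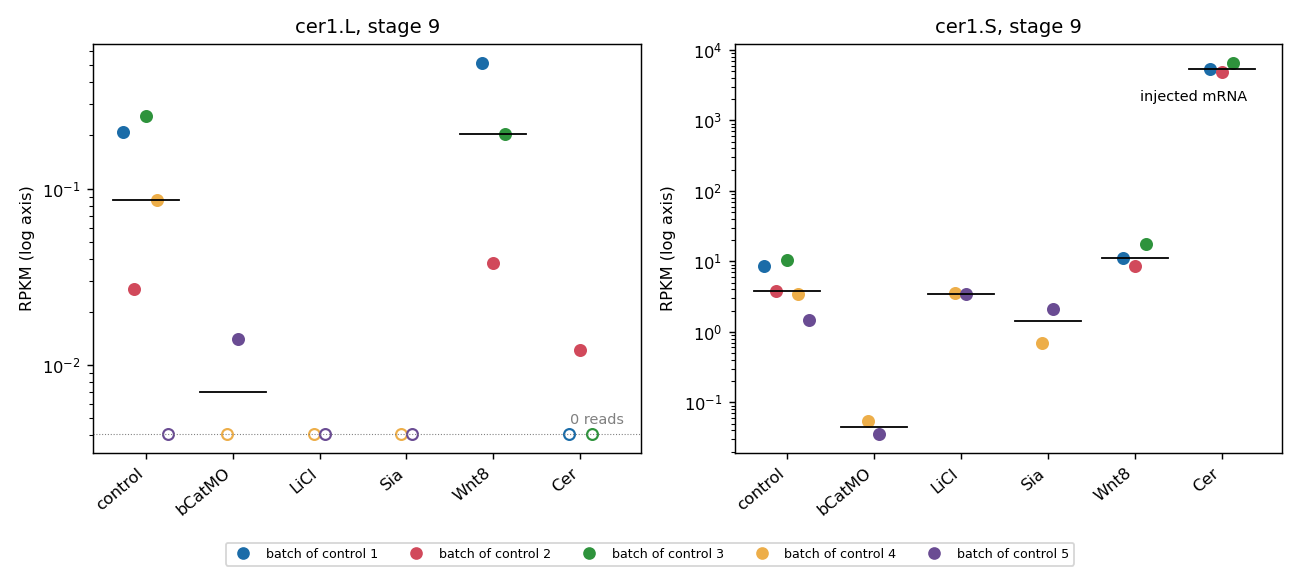
RPKM of cer1.L (left) and cer1.S (right) in each stage 9 library, on log axes, coloured by the control that shares their batch. Open circles on the dotted line are libraries with 0 cer1.L reads, and bars are group medians. Both bCatMO libraries lie below every control for cer1.S, at 0.0537 and 0.0352 RPKM.

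The β-catenin knock-down had already left almost no cer1.S at stage 9. The bCatMO libraries held 3 and 2 reads, against 159 and 90 in controls 4 and 5. The ratio to the control was 0.0156 (95% counting interval 0.00319 to 0.0465) in the first batch and 0.0235 (0.00281 to 0.0875) in the second, from exact binomial intervals that cover counting error only. The fitted difference was -2.36 ± 0.36 (adjusted p = 0.0094), lower in 2 of 2 batches, where 0.696% of 18530 rows were called and 0.513% were called lower. Both bCatMO values lie far below the added 0.5 RPKM, so this fitted value is a smaller fall than the ratios above. The call was lost without control 4 (-1.70, adjusted p = 0.17), without bCatMO 1 (-2.41, adjusted p = 0.092), without bCatMO 2 (-2.32, adjusted p = 0.16), with no filter on low values (adjusted p = 0.064) and with voom on recovered reads (-5.39, adjusted p = 0.091). Of the promoter factors, 4 of 15 rows were called lower in these libraries and 0 higher (also 0 at an unadjusted p below 0.05 and with voom), all of them sia1 or sia2 rows.

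The other treatments gave no call for cer1.S at stage 9. The Wnt8 libraries held 11.3, 8.46 and 17.5 RPKM against 8.60, 3.86 and 10.6 in controls 1, 2 and 3, higher in 3 of 3 batches (0.71 ± 0.29, adjusted p = 0.58, where 0.108% of rows were called). The LiCl libraries held 3.52 and 3.45 RPKM against 3.44 and 1.50 (0.51 ± 0.36, adjusted p = 0.80, 0.448% called). The Sia libraries held 0.703 and 2.11 RPKM against the same controls, lower in one batch and higher in the other (-0.66 ± 0.36, adjusted p = 1.00, 0.281% called). LiCl and Sia share these controls with bCatMO. Of the promoter factors, 4 of 15 rows were called higher in LiCl, 1 in Sia and 4 in Wnt8 at stage 9. In each 0 were called lower (2, 4 and 0 at an unadjusted p below 0.05, 0 with voom). Without the batch term 3, 1 and 1 were called higher.

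Reads of cer1.L at stage 9 numbered 40, 4 and 15 in the Wnt8 libraries, 0, 1 and 0 in Cer, 0 and 1 in bCatMO, and 0 in both LiCl and both Sia libraries. It did not pass the filter on low values, so its changes at stage 9 were not tested in the chosen fit. With no filter it was not called in any comparison (adjusted p from 0.81 to 1.00). The added 0.5 RPKM exceeded every control value, the highest being 0.258 RPKM, so even a fall to 0 is small on that scale. That fit therefore cannot decide whether cer1.L fell at stage 9. Taking 3 reads per library as the limit, the 0 reads of Cer 1 and Cer 3 set limits of 0.0333 and 0.0415 RPKM. Their controls, 1 and 3, held 20 cer1.L reads each. These controls also held the same number of cer1.S reads, 657 each, at depths of 49.8 and 40.5 M reads. The measured cer1.L values of the controls were 6.31 and 6.22 times these limits. Such ratios leave out the counting error of the controls, so they are not strict bounds on a fall. Control 4, with 5 reads, stood at 2.01, 1.84 and 2.01 times the limits of LiCl 1, Sia 1 and bCatMO 1, which had 0 reads. With so few control reads these ratios do not bound a fall of that size. Against control 5, with 0 reads, no fall was detectable at this depth. In Cer embryos of stage 9, 12 of 38 Nodal-responsive rows were called lower and 0 higher (3 higher at an unadjusted p below 0.05, 0 with voom), with a median of -0.75 beside -0.01 over all rows, where 0.399% of all rows were called and 0.21% were called lower. That count was 0 with only Cer and the controls of its batches in the fit. It was 2 with no batch term, 2 with no filter and 20 with voom. It was 4, 3, 6 and 4 without control 1, control 3, Cer 1 and Cer 3.

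By the root-mean-square difference of 15 log2 differences at stage 10.5 (10 treated minus control and 5 dorsal minus ventral, without Cer), the rows most like cer1.L among 17924 were the otx2 rows Xelaev18041108m and Xelaev18039840m (0.65 and 0.69), gsc.S and gsc.L (0.85 and 0.89) and cer1.S (0.91), beside a median of 3.15 over all rows. For cer1.S the first was cer1.L (0.91), followed by gsc.L (0.95), the chordin row Xelaev18029538m (1.02), the otx2 row Xelaev18041108m (1.06) and the Xnr3 row Xelaev18018866m (1.11), beside a median of 3.89. The differences were taken on log2(RPKM + 0.5), and 0.5 RPKM exceeded most cer1.L values of ventral half-embryos and bCatMO. The order of the rows was not computed without a pseudocount. For cer1.L the fitted differences among these comparisons were largest between half-embryos and in bCatMO (4.37 and -3.86), and their weight in the order was not tested. In Sia the otx2 rows rose by 1.37 and 1.07 and gsc.S by 1.44, all called, beside -0.01 for cer1.L. There gsc.L was not called (1.16). The row gsc.S was also called in LiCl (1.44) and Wnt8 (1.19), where cer1.L was not. The Cer libraries were not used for this likeness. In them cer1.L fell by 4.47 ± 0.29, gsc.L by 3.09 ± 0.32, gsc.S by 2.30 ± 0.18, chordin by 2.01 ± 0.27, and the Xnr3 row and the otx2 row Xelaev18039840m by 0.97 ± 0.22 and 0.96 ± 0.21. The otx2 row Xelaev18041108m, the one most like cer1.L by this measure in the other libraries, stood at 0.52 ± 0.22 (adjusted p = 0.29).

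The other 2 rows that the tables match to human CER1, dand5-like.1 and dand5-like.L, were tested in the same fits. At stage 10.5 neither was called between dorsal and ventral half-embryos (-0.40 and -0.17, adjusted p = 1.00 for each), in bCatMO (-0.37 and -0.23, adjusted p = 0.099 and 0.22) or in Cer (-0.36 and -0.28, adjusted p = 0.18 and 0.21). In LiCl 3.8% of all rows were called higher at stage 10.5. Both dand5-like rows were called higher there (0.51 ± 0.15, adjusted p = 0.037, and 0.74 ± 0.12, adjusted p = 0.0024), beside 0.57 ± 0.45 for cer1.S and 0.35 ± 0.33 for cer1.L. Neither was called with no batch term or without LiCl 1, and 1 of the 2 was called with no filter or without LiCl 2, control 1, control 2 or control 3.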

How the data were processed

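Polyadenylated RNA from 1 µg of total RNA per library was sequenced as 100-base single-end reads, per the labels' protocols. The authors deposited RPKM values per gene and library, with 1 table per stage, per the file headers. The submitters' processing notes name TopHat2 2.09 and DESeq without saying what each was used for; the genome build, gene annotation, read counter and strand setting are missing from the labels and headers used for this work. Homeologs that share sequence can exchange reads in such counting. Samples were grouped by their labels, and each treated library was placed in the batch of the control its label names.

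Tests used limma 3.58.1 in R 4.3.3 (lmFit, eBayes with a trend) on log2(RPKM + 0.5), two-sided, with Benjamini-Hochberg adjustment over all rows at 1 RPKM or more in at least 2 fitted libraries. Each stage had 1 model over its whole-embryo libraries, with terms for group and labelled batch, and half-embryos were fitted 5 against 5. Same-numbered half-embryos deviated together (correlations 0.90, 0.86, 0.89, 0.54 and 0.83), so the replicate block was fitted as an alternative that counts as paired. The homeolog ratio was fitted as log2(cer1.L + 0.5) minus log2(cer1.S + 0.5) among all symbols with 1 L and 1 S row. Whole reads were recovered from the RPKM steps of rows above 0 in at least 5 libraries (100% of these rows, within 0.005 of a whole read). Intervals from them cover counting error only, as does the limit of 3 reads that a count of 0 allows. The fits were also run on simulated data with the same spread setting for all genes and no pairing of half-embryos. As same-numbered half-embryos deviated together here, that run does not check the half-embryo fits. Named genes are, per list, the 3 called rows with the largest change, the promoter factors and ligands, and the 5 rows most like each homeolog; other named rows were chosen after their values were seen. The members and lists were chosen with earlier results of these data known. Columns numbered 3 for LiCl at stage 10.5 belong to the second LiCl library by their library name.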

Additional observations from a re-analysis of the deposited data

Results flagged for a closer look

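In 4 of 12 tests of single libraries, 1 library stood apart from the rest of its group beyond the 95% critical value of Dixon's test. Chance alone reaches it in about 1 in 20 independent groups of normally spread values. These tests used RPKM without a log and are not independent, as the homeologs and same-numbered half-embryos moved together. Control 6 of stage 10.5 held cer1.L at 28.9 RPKM, where the next control held 14.9 RPKM. Dorsal half-embryo 1 held cer1.L at 65.1 RPKM against 18.8 for the next dorsal library, and cer1.S at 303 RPKM against 149.7. Ventral half-embryo 1, of the same number, held cer1.L at 1.23 RPKM against 0.392 for the next ventral library. The dorsal over ventral ratio of that pair was 53.1 for cer1.L and 34.2 for cer1.S, inside the range of the other pairs for both. What sets these libraries apart was not tested.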

How the results depend on the processing

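Of 274 alternatives for the homeologs 249 kept the direction and the side of the threshold, and of 73 for their ratio 67 did. The called differences of single homeologs at stage 10.5, but not that of their ratio, stayed called under every alternative run: cer1.L in Cer from -6.29 to -3.74, cer1.L in bCatMO from -5.45 to -3.22, cer1.S in bCatMO from -6.25 to -4.97, and dorsal against ventral from 3.76 to 5.66 for cer1.L and 4.74 to 5.31 for cer1.S. The bCatMO and dorsal against ventral ranges include the fit of both homeologs summed. Fitted with only the compared group and the controls of its batches, LiCl gave 0.64 for cer1.L (adjusted p = 0.0022) and 0.88 for cer1.S (0.00019). In such fits Wnt8 gave 0.85 (0.029) and 0.99 (0.012) in the same order, and Sia gave -0.0086 for cer1.S. These fits hold few libraries from which to estimate the spread. With voom on recovered reads, chosen after seeing the data, cer1.S gave 0.73 in LiCl (adjusted p = 0.042), 1.00 in Wnt8 (0.020) and -5.39 in bCatMO at stage 9 (0.091), and cer1.L gave 0.030 in Sia. The uncalled cer1.L value in Sia changed sign with a pseudocount of 0.1 (0.079) and size factors (0.024), and the fit of both homeologs summed, mostly cer1.S, gave 0.29. With a pseudocount of 0.1 the dorsal against ventral ratio was 0.11. With no filter cer1.S in bCatMO at stage 9 was -2.36 (adjusted p = 0.064). Without the replicate block that the batches form, the ratio was 1.32 in bCatMO (adjusted p = 0.082) and 0.14 in Wnt8, and cer1.S in LiCl at stage 9 was -0.36; pairing the half-embryos as a replicate block changed no call of the homeologs. Called rows over the whole table went from 125 to 422 with that block; without the batch block they went at stage 10.5 from 1346 to 166 in bCatMO, 2668 to 146 in LiCl, 784 to 263 in Sia, 87 to 8 in Wnt8 and 856 to 335 in Cer, and at stage 9 from 129 to 51, 83 to 3, 52 to 21, 20 to 2 and 74 to 8. Nodal-responsive rows lower in Cer at stage 9 numbered 12, and 0 to 20 over 15 alternatives, of which 8 moved the count by over 1.5 times. Without the batch block, rows called in Cer at stage 10.5 went from 18 to 9 lower in the BMP-responsive list, 10 to 2 lower in the zygotic Wnt list, 8 to 4 higher among ligands and 12 to 7 higher among head and neural plate genes.

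Leaving out 1 library at a time gave, at stage 10.5, -0.017 to 0.64 for cer1.L and -0.034 to 1.09 for cer1.S in LiCl, -0.64 to 0.58 and -0.01 to 0.90 in Sia, and -0.71 to 0.30 and -0.66 to 0.017 for the ratio in LiCl and Sia. At stage 9 cer1.S ranged from -3.03 to -1.70 in bCatMO, -0.16 to 1.17 in LiCl and -1.40 to 0.075 in Sia. The causes were not tested. The planned count test on recovered reads was not run, since the deposited unit is RPKM. Depth limits cer1.L at stage 9, where 48 reads in all were counted over 5 controls.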
